A study of Drosophila melanogaster with 18 samples.

Results

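The response to mild warming was examined in *Drosophila* S2R+ cells that had been depleted of the histone variant H2Av, by comparing cells kept for 24 h at 30 °C with cells kept for 24 h at 25 °C, the optimal growth temperature. H2Av is the only H2A variant of the fly and combines the roles that H2A.Z and H2A.X have in other animals. It is found in nucleosomes close to transcription start sites, including those of heat shock genes, where the polymerase pauses until Hsf, the heat shock transcription factor, binds. In the classical heat shock response, Hsf then drives the genes of inducible chaperones, which hold or refold proteins that lose their structure at high temperature.

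S2R+ is an adherent line of blood cell character that was derived from embryos. All cells received dsRNA at 25 °C several days before the shift, either from *His2Av* (H2Av RNAi) or from the bacterial gene *lacZ* (lacZ RNAi), which served as the control. The study also kept cells at 14 °C, and each of its 6 groups was measured on 3 single-colour Agilent arrays. The comparison below used 6 of the 18 arrays, those of H2Av RNAi at 30 and at 25 °C. The spread in its test was estimated from all 18. A probe entered it if at least 2 arrays of H2Av RNAi at 25 °C, or at least 2 at 30 °C, showed it well above background, as was the case for 20665 of the 32162 different probes on the array. Of these, 14013 (67.8%) carried a gene symbol, and they belonged to 9442 of the 13059 genes on the array. Fewer cells had been plated for 30 °C than for 25 °C, so that plating density and temperature cannot be told apart. The 3 arrays of each group lay on a slide of their own that was scanned in 1 pass, the slides at 30 °C after those at 25 °C, so that slide, scan and group cannot be told apart either. RNAi lowers a transcript but leaves some of it, and fewer cells of a kind cannot be told apart from less RNA per cell.

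Levels are given as quantile-normalized log2 signals, on which a difference of 1 is a 2-fold change, and can be compared between arrays for a probe but not between probes. A probe was called higher or lower when limma gave an adjusted p under 0.05 and the change was 2-fold or more, and "rose" and "fell" are used only for such probes. Among the arrays of H2Av RNAi at 25 and 30 °C, those of the same group correlated with r between 0.983 and 0.995. Those of different groups correlated with r between 0.972 and 0.982. The median SD of a probe was 0.19 and 0.22 in H2Av RNAi at 25 and 30 °C, but 0.40 and 0.36 in lacZ RNAi at these temperatures.

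The depletion was examined first. *His2Av* reached levels of 11.92, 13.82 and 12.73 in H2Av RNAi at 25 °C and of 12.10, 12.10 and 12.33 at 30 °C. In lacZ RNAi, the levels were 15.04, 16.41 and 16.22 at 25 °C and 15.96, 16.25 and 16.17 at 30 °C, which was above every depleted array. The signal in H2Av RNAi was thus 11.9% of that in lacZ RNAi at 25 °C (log2 difference -3.07, limma, adjusted p = 0.00108) and 6.48% at 30 °C (-3.95, adjusted p = 0.000195). A further *His2Av* probe was at 3.45% and 1.56% of the control. These values are of the transcript, and how much of the H2Av protein was left cannot be read from the arrays. Between 25 and 30 °C, the depleted arrays overlapped and *His2Av* differed by -0.65 ± 0.52 (SE), which did not pass the test (adjusted p = 0.457). The actin gene *Act5C* likewise overlapped between the temperatures (-0.22 ± 0.31, adjusted p = 0.700).

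The cell type of the label was checked against its markers. Of 13 blood cell markers, 12 were well above background on all 6 arrays, among them the transcription factor genes *srp*, with mean levels of 14.26 at 25 °C and 14.21 at 30 °C, and *pnr*, with 14.55 and 14.11. The scavenger receptor gene *crq* had mean levels of 15.79 and 15.46, whereas the phagocytosis receptor gene *NimC2* was not above background on any of the 6 arrays. Of 4 muscle markers, the mesoderm gene *twi* was not above background on any array, but *Mef2*, *Mhc* and *Act57B* were on all 6. The 4 neuronal and the 4 germ line markers were also above background on all 6 arrays, and 1 of each, *nSyb* and *nanos*, was called higher at 30 °C. The others went both ways and were not called. They were *elav* (-0.11), *Syt1* (-0.98), *brp* (0.35), *vas* (-0.69), *aub* (-0.77, limma, adjusted p = 0.00334) and *AGO3* (0.84, 0.0293). The part of other cell types in the changes below was not tested.

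Rises and falls in H2Av RNAi were similar in number after quantile normalization. This gives all arrays the same distribution of signals, so that the balance of the directions cannot be read from it. With scaling to the 75th percentile instead, 524 probes were called higher and 708 lower. With quantile normalization, 760 probes (3.68% of those tested) were called higher and 707 (3.42%) lower at 30 °C. They belonged to 428 genes with a probe that rose and 356 with a probe that fell, with 2 genes in both groups, and 888 of the called probes carried a symbol. The median change was 1.44 among the probes that rose and -1.42 among those that fell, with 140 and 129 of them changing by at least 2 log2 units. Over all tested probes, the median was 0.02, and 95% of the changes lay between -1.51 and 1.39. The 3 arrays at 30 °C did not overlap with the 3 at 25 °C for 1463 of the 1467 called probes. The same held for 46.1% of all tested probes. The calls were made from these same arrays, so that this contrast is no separate evidence for them. The genes named below for the largest rises and falls were also chosen among probes without overlap. Gaps between the arrays of named genes are therefore given as a description only. In 119 of the risen and 105 of the fallen probes, the lower group was not above background on any array, which leaves only a bound for the fold change. The number of called probes fell to 886 without replicate 2 at 25 °C, to 916 without replicate 1 at 30 °C and to 969 without replicate 2 at 30 °C.

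Genes with several probes allowed a look at how far a call held within a gene. There were 339 genes with a called probe and at least 1 further tested probe. Of their 619 further probes, 502 (81.1%) changed with the same sign as the called probe, 104 (16.8%) were called the same way and 2 the other way. The probes of a gene can report different transcript ends, so that a call applies to its probe.

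The largest rise among the named genes was that of *yellow-d*, a member of the yellow gene family that is best known for cuticle pigmentation. Its levels were 4.43, 4.35 and 4.39 at 25 °C and 8.02, 7.86 and 8.37 at 30 °C, a change of 3.69 ± 0.38 (SE; limma, adjusted p = 6.44e-05). *Hsp23*, which codes for a small heat shock protein, was at 10.84, 11.62 and 11.15 at 25 °C and at 14.09, 14.82 and 14.87 at 30 °C (3.39 ± 0.45, adjusted p = 0.000396). In both genes, every array at 30 °C was more than 2 log2 units above every array at 25 °C. *Rh50*, which codes for an ammonium transporter of the Rhesus family, rose by 3.39 ± 0.43 (adjusted p = 0.000311) from levels of 1.69, 3.04 and 3.01 to 5.79, 6.24 and 5.89. *CG34355* went from 7.56, 6.30 and 6.78 to 10.50, 10.10 and 9.84 (3.27 ± 0.56, adjusted p = 0.00242).

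Further genes were among the 12 strongest rises. *mspo*, the gene of the extracellular matrix protein M-spondin, had levels of 7.13, 7.44 and 7.83 at 25 °C and of 10.77, 10.69 and 10.67 at 30 °C (3.24 ± 0.36, adjusted p = 0.000136). *tok*, which codes for the secreted metalloprotease tolkin, was at 6.55, 6.65 and 6.34 and then at 9.35, 9.30 and 9.63 (2.92 ± 0.30, adjusted p = 6.92e-05), and its other probe rose by 2.69. The arrays of both genes were tightly grouped at either temperature and far apart between them. *Pde6*, a gene of a cyclic GMP phosphodiesterase, rose by 2.72 ± 0.44 (adjusted p = 0.00164). *tin*, the gene of the heart homeobox factor Tinman, had levels of 5.27, 4.54 and 5.23 at 25 °C and of 7.65, 7.40 and 8.07 at 30 °C (2.69 ± 0.42, adjusted p = 0.0013). The nicotinic acetylcholine receptor gene *nAChRalpha7* had no array well above background at 25 °C and was at least 6.15-fold higher at 30 °C, and its other probe rose by 2.32. In the same way, *CG17321* was at least 6.83-fold and *CG40498* at least 4.24-fold higher. *CG14298* rose by 2.84 ± 0.65 (adjusted p = 0.0123), but not without replicate 3 at 25 °C (adjusted p = 0.0594). The calls of *Rh50*, *CG17321*, *CG40498*, *nAChRalpha7* and *CG14298*, all dim at 25 °C, were lost when the background was corrected by normexp instead. The changes were then 0.80, 0.59, 0.41, 0.56 and 0.84, under 2-fold. The adjusted p (limma) was still 0.000544 for *Rh50*, 0.0172 for *CG17321*, 0.000994 for *nAChRalpha7* and 0.00818 for *CG14298*, but 0.0699 for *CG40498*.

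The largest fall among the named genes was that of *Srg3*, with 12.26, 12.62 and 12.48 at 25 °C and 9.33, 8.97 and 8.60 at 30 °C (-3.49 ± 0.33, adjusted p = 4.08e-05). A further probe of *Srg3* changed by only -0.90 and was not called. *CG13694* followed with 10.81, 10.29 and 10.53 at 25 °C and 7.28, 7.07 and 7.06 at 30 °C (-3.41 ± 0.25, adjusted p = 7.35e-06). The arrays of the temperatures were far apart in both genes, which were 11.2-fold and 10.6-fold lower at 30 °C. *Bfc*, the gene of a transcription factor that promotes *crq* expression in phagocytes, was on no array above background at 30 °C and at least 8.19-fold lower. By the same reckoning, *CG31140* was at least 5.59-fold lower with all 5 further probes negative, *CG43795* at least 5.18-fold lower with a further probe that fell by 2.33, and *sala* at least 4.71-fold lower.

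*Nazo*, which is known for a role in antiviral defence, had levels of 12.15, 13.11 and 12.92 at 25 °C and of 9.33, 10.21 and 10.56 at 30 °C (-2.70 ± 0.49, adjusted p = 0.00339). The lipase gene *Lip4* was at 10.95, 12.27 and 12.03 and then at 8.14, 9.34 and 9.70 (-2.69 ± 0.61, adjusted p = 0.0116). In either gene, replicate 1 was the lowest at both temperatures, but the temperatures were apart. *Lip4* lost its call without replicate 2 at 25 °C (adjusted p = 0.057) and without replicate 1 at 30 °C (0.0596). *CG3777* fell by 2.76 (adjusted p = 0.0165), though not without replicate 2 at 25 °C (0.0633) or replicate 2 at 30 °C (0.0541). *CG10431* was at least 8.14-fold lower (adjusted p = 0.0246), with a further probe at 0.74, and the call was lost with the replicate number as a block (0.0502) and without replicate 1 or 2 at 25 °C or replicate 1 or 2 at 30 °C (0.066 to 0.098). The call of *sala* was lost without any of the replicates at 25 °C and without replicate 1 or 2 at 30 °C (0.0558 to 0.0759). Under normexp, the dim genes *Bfc*, *sala*, *CG10431*, *CG31140* and *CG43795* changed by -0.76, -0.51, -0.96, -0.62 and -0.42, under 2-fold, and were not called. The adjusted p (limma) was then 0.000865, 0.0282, 0.0196, 0.0215 and 0.082.

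From the study text, 10 of the genes named there for their temperature response or as controls were followed, and 2 of these fell on warming. *betaTub97EF*, a beta-tubulin gene, was at 13.25, 13.77 and 13.84 at 25 °C and at 10.33, 11.56 and 11.66 at 30 °C (-2.44 ± 0.35, adjusted p = 0.000681). *pst* (*pastrel*), which is known from natural variation in resistance of flies to viruses, was at 13.18, 13.42 and 13.28 and then at 10.80, 10.97 and 11.18 (-2.31 ± 0.25, adjusted p = 8.3e-05). At 14 °C, the mean levels in H2Av RNAi were 14.72 for *betaTub97EF* and 14.10 for *pst*, so that either mean was lower at each higher temperature. *CG32944* (-0.43 ± 0.31, adjusted p = 0.392), the adipokinetic hormone gene *Akh* (-0.77 ± 0.30, 0.111), the insulin receptor gene *InR* (0.04 ± 0.24, 0.937) and the myosin light chain gene *sqh* (0.22 ± 0.44, 0.795) were not called.

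Several genes of inducible chaperones rose. For the following lists, each gene was represented by its brightest tested probe, by which 315 (3.34%) of the 9442 genes were called higher and 272 (2.88%) lower, with a median change of 0.00. Of the 9 measured small heat shock protein genes, 4 rose and none fell, and all 9 had positive changes with a median of 1.13. The smallest changes were 0.01 for *CG4461*, 0.08 for *CG14207* and 0.79 for *l(2)efl*, none of them called. *Hsp26* reached 12.55, 12.98 and 12.91 at 25 °C and 14.58, 15.30 and 15.20 at 30 °C (2.22 ± 0.33, adjusted p = 0.000987). *Hsp27* was at 10.52, 11.08 and 11.42 and then at 12.81, 13.45 and 13.80 (2.34 ± 0.44, adjusted p = 0.00401), and its 3 further probes rose too. Every array at 30 °C was above every array at 25 °C in *Hsp23*, *Hsp26* and *Hsp27*. *Hsp67Bc* also rose (1.34 ± 0.21, adjusted p = 0.00129). *Hsp22*, whose protein resides in mitochondria, was at 13.88, 14.61 and 14.39 and then at 15.03, 15.50 and 15.74, which did not overlap but did not pass the test (1.13 ± 0.55, adjusted p = 0.199). It was called higher, however, in the paired fit with the replicate block (adjusted p = 0.00391), when only the 6 arrays of the comparison were fitted (0.0313) and with array weights (0.00217).

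Of the 5 measured genes of inducible Hsp70 and Hsp68, 4 rose, with a list median of 2.33. *Hsp70Bb* had levels of 11.90, 12.08 and 11.61 at 25 °C and of 14.25, 14.96 and 14.23 at 30 °C (2.62 ± 0.32, adjusted p = 0.000219). *Hsp70Aa* was at 13.09, 13.43 and 13.02 and then at 15.21, 15.82 and 15.49 (2.33 ± 0.33, adjusted p = 0.000645). *Hsp70Ba* and *Hsp70Bc* rose by 2.46 and 2.32, but the *Hsp70* copies are nearly identical, so that a probe may report more than 1 of them. *Hsp68* changed by 0.77 ± 0.26 (adjusted p = 0.0701). Chaperones that are present in unstressed cells were represented by 21 measured genes of Hsf, Hsp90 and constitutive chaperones, of which only the Hsp40 gene *DnaJ-1* was called (1.27 ± 0.31, adjusted p = 0.0156), and it was not called without replicate 3 at 25 °C (0.0682) or without replicate 1 (0.0597) or 2 (0.0722) at 30 °C. The changes were 0.11 for *Hsf* itself, -0.07 for the Hsp90 gene *Hsp83* and 0.08 for *Hsc70-4*, none of them called.

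Some of these chaperone genes were also called in the control cells. Of the 9 small heat shock protein genes, 2 were called higher in lacZ RNAi, with a list median of 0.70. Of the 5 genes of inducible Hsp70 and Hsp68, 4 were, with a median of 2.53. *Hsp67Bc* changed by 0.64 there and was not called (limma, adjusted p = 0.0516). In lacZ RNAi, the *Hsp23* change was 3.47 (adjusted p = 0.000542), that of *Hsp26* 2.27 (0.00102) and that of *Hsp70Bb* 3.27 (0.00011), and the difference between the RNAi groups was not called for any of these 3 genes (-0.08 ± 0.63, -0.05 ± 0.47 and -0.65 ± 0.45). *Hsp27* had control levels of 12.11, 12.51 and 12.81 at 25 °C and 12.85, 14.28 and 13.87 at 30 °C (1.19, adjusted p = 0.077). Its level at 25 °C was thus lower on every depleted array than on every control array, while the difference of the changes, 1.15 ± 0.62, did not pass the test (adjusted p = 0.506). None of the 14 measured genes of small heat shock proteins, Hsp70 and Hsp68 had a called difference.

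No gene of other protein folding and turnover machines was called higher. None of the 8 genes of the CCT chaperonin, which folds actin and tubulin, and none of 34 genes of folding and stress in the endoplasmic reticulum was called, with medians of -0.38 and -0.13. Of 36 measured proteasome genes, all but 1 had a negative change, with a median of -0.30, but only the core subunit gene *Prosbeta3* was called. Its levels were 13.65, 13.63 and 13.67 at 25 °C and 12.11, 12.20 and 12.38 at 30 °C (-1.42 ± 0.20, adjusted p = 0.000584). Changes under 2-fold with an adjusted p under 0.05 were found for *Rpt2* (-0.87), *Rpt4* (-0.85), *Rpn12* (-0.62) and *Rpn9* (-0.55), subunits of the regulatory particle. By this looser criterion, 5 of 36 proteasome genes were lower, compared with 6.99% of all genes that were lower and 5.89% that were higher. The median of the proteasome list in lacZ RNAi was -0.41, against -0.13 for all genes there.

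Genes of DNA replication had small positive changes. Of 52 measured genes, 48 had a positive change, with a median of 0.44, compared with 4756 of 9442 genes and a median of 0.00 overall. Only *Orc5*, a gene of the origin recognition complex, was called, with 9.83, 9.22 and 9.63 at 25 °C and 10.78, 10.79 and 10.71 at 30 °C (1.20 ± 0.28, adjusted p = 0.0126). Its other probe changed by -0.19, and the call was lost without replicate 2 at 25 °C (0.0654). Changes under 2-fold with an adjusted p under 0.05 were present in 9 further genes, such as *PolD3* (0.96), *Orc6* (0.94), the helicase genes *Mcm2* (0.66) and *dpa* (0.55), and the licensing factor gene *dup* (0.48). The list median was between 0.34 and 0.48 in each of the 15 alternative analyses of these arrays. In lacZ RNAi it was -0.03, where the median of all 9442 genes was -0.13. No gene of the list had a called difference between the RNAi groups. Of 62 genes of mitosis, *Kmn1*, a kinetochore gene, was the only one called and fell by 1.49 (adjusted p = 0.0002), and the list median was 0.20.

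Other lists linked to H2Av showed few calls. Of 21 genes of the complexes that exchange H2A.Z, only *Act87E* was called, an actin gene close in sequence to other actins (1.27 ± 0.39, adjusted p = 0.0469), and the call was lost with the replicate block (0.0622) and when any of the 6 arrays was left out (0.0854 to 0.144). None of 25 genes of histone variants and chaperones was called, with a median of 0.33. Of 35 genes of the DNA damage checkpoint and repair, *agt*, which codes for an alkylguanine DNA methyltransferase, fell from 12.19, 12.48 and 12.18 to 11.32, 11.10 and 10.94 (-1.16 ± 0.23, adjusted p = 0.0061). The median of this list was 0.18.

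Antimicrobial peptide genes were among those that fell. Of 38 measured genes of Toll and Imd immunity, 4 fell and 1 rose, with a list median of -0.16. *CecC*, a cecropin gene, had levels of 9.84, 10.20 and 10.38 at 25 °C and of 8.04, 8.35 and 8.43 at 30 °C (-1.87 ± 0.31, adjusted p = 0.00189), and its other probe changed by -1.88. The attacin gene *AttD* was at 9.09, 10.34 and 9.94 and then at 7.63, 8.01 and 8.33 (-1.80 ± 0.49, adjusted p = 0.0281). *CecA1* and *CecA2*, which are too similar to be told apart with certainty, changed by -1.49 and -1.45, both called. *DptB*, a diptericin gene, rose from a mean level of 6.47 to one of 7.90 without overlap (1.43 ± 0.32, adjusted p = 0.0109). *DptB* was not called without replicate 1 at 25 °C (0.0513) or with normexp (0.87, under 2-fold, adjusted p = 0.0118). The calls of *AttD* (0.0785 to 0.122) and *CecA1* (0.0584 to 0.111) were lost without replicate 2 or 3 at 25 °C and without replicate 1 or 2 at 30 °C, when 2 genes of the list were called. In lacZ RNAi, *CecC*, *AttD* and *CecA1* changed by -1.75, -1.85 and -1.82, each called.

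Some detoxification genes rose, and some genes of the blood cell and its matrix fell. Of 41 genes of antioxidant and detoxification functions, 3 rose and none fell. The cytochrome P450 genes *Cyp12d1-p* (13.12, 12.79 and 13.40 at 25 °C, 14.79, 15.09 and 14.76 at 30 °C, 1.77 ± 0.28, adjusted p = 0.0013) and *Cyp12d1-d* (1.34 ± 0.24, 0.00324) are nearly identical copies, so that which of them rose is uncertain. The third was the glutathione S-transferase gene *GstS1*, with 8.59, 8.71 and 8.92 at 25 °C and 9.74, 9.81 and 9.97 at 30 °C (1.10 ± 0.22, adjusted p = 0.00536). Of 23 blood cell genes, the phagocytic receptor gene *drpr* fell from 10.55, 11.22 and 11.41 to 8.95, 9.82 and 10.07 (-1.45 ± 0.40, adjusted p = 0.0306), but 2 further probes changed by only -0.39 and -0.52. The call of *drpr* was lost without replicate 2 or 3 at 25 °C and without replicate 1 or 2 at 30 °C (0.0638 to 0.135). The crystal cell factor gene *lz* was at least 2.36-fold lower, a call that was lost with normexp (-0.27) and when any array except replicate 2 at 30 °C was left out (0.0689 to 0.133). Of 28 genes of matrix and adhesion, the perlecan gene *trol* fell by 1.42 (adjusted p = 0.015), with further probes between -1.60 and 1.34, and *Tig*, which codes for tiggrin, an integrin ligand, fell by 1.10 (adjusted p = 0.00201). *trol* was not called without replicate 2 at 25 °C (0.0737) or replicate 3 at 30 °C (0.0557), and *Tig* changed by -0.96, under 2-fold, without replicate 1 at 30 °C.

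In signalling and cytoskeleton lists, single genes stood out. Of 30 genes of JAK/STAT and JNK signalling, *et* (*eye transformer*), which codes for a short receptor that dampens JAK/STAT signalling, rose from 7.27, 7.22 and 7.71 to 8.68, 9.47 and 8.79 (1.58 ± 0.33, adjusted p = 0.00687). *Ets21C*, a transcription factor gene of the ETS family, fell by 1.01 (adjusted p = 0.00961), close to the 2-fold limit, and changed by between -0.89 and -0.99 without replicate 1 or 2 at 25 °C or replicate 1 or 3 at 30 °C. *betaTub97EF* was the only gene called among 9 tubulins. The filamin gene *cher* fell from 14.84, 15.28 and 15.28 to 13.24, 13.87 and 13.91 (-1.46 ± 0.37, adjusted p = 0.0194), but was not called without replicate 2 (0.0747) or 3 (0.0679) at 25 °C or replicate 1 at 30 °C (0.0868). None of 32 genes of insulin and TOR signalling, 15 of the clock and temperature sensing, 17 of apoptosis and 19 of autophagy was called.

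Metabolic lists held few calls as well. The fatty acid desaturase gene *Desat1* rose by 1.08 ± 0.30 (adjusted p = 0.0295) with all arrays at 30 °C above those at 25 °C, whereas *Desat2* fell by 1.35 ± 0.40 (adjusted p = 0.0396). The call of *Desat1* was lost without replicate 2 or 3 at 25 °C and replicate 1 or 2 at 30 °C (0.0784 to 0.124), and that of *Desat2* with the replicate block (0.0533), with normexp (-0.84) and when any array except replicate 3 at 30 °C was left out (0.0728 to 0.137). *Tps1*, the trehalose-6-phosphate synthase gene, was not above background on any array at 25 °C and was at least 2.87-fold higher at 30 °C. It was the only gene called among 19 of glycolysis and related sugar metabolism, and lost its call without replicate 2 at 25 °C and without replicate 1 or 2 at 30 °C (0.0546 to 0.056) and with normexp (0.31). The dim genes *Pex6* (peroxisome import), *ND-51L2* (related to a complex I subunit) and *Vha100-5* (a proton pump subunit) were called higher. *Pex6* rose by 1.19 and *ND-51L2* by 1.14, and *Vha100-5*, not above background on any array at 25 °C, was at least 3.35-fold higher. Each lost its call when any of the 6 arrays was left out (0.0571 to 0.178) and with normexp (0.23, 0.32 and 0.27), as did the first 2 with the replicate block (0.0674 and 0.0504). None of the 89 cytoplasmic and 70 mitochondrial ribosomal protein genes was called, with medians of 0.00 and -0.03. Outside the lists of inducible Hsp70 and Hsp68 (median change 2.33) and of small heat shock proteins (1.13), the list medians lay between -0.38 and 0.44.

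Genes that mark other lineages changed singly. Of 11 germ line genes, *nanos*, a translational repressor gene, rose from 8.02, 7.88 and 7.92 to 9.97, 10.05 and 10.26 (2.16 ± 0.63, adjusted p = 0.0374), and *piwi*, a gene of the small RNA pathway against transposons, from 7.04, 6.44 and 7.31 to 8.05, 8.19 and 8.60 (1.35 ± 0.38, adjusted p = 0.032). Of 11 neuronal genes, the synaptobrevin gene *nSyb* rose by 1.69 (adjusted p = 0.0112) and *ChAT*, the choline acetyltransferase gene, by 1.38 (adjusted p = 0.0197). The arrays of all 4 genes were apart between the temperatures. In the germ line list, 7 of the 11 changes were positive, with a median of 0.18 and a lowest change of -1.14. In the neuronal list, 7 of 11 were positive, with a median of 0.07 and a lowest change of -0.98. None of 11 muscle genes was called. Leaving out single arrays took away the call of *nanos* for each of the 6 arrays (0.084 to 0.107), of *piwi* for all but replicate 3 at 25 °C (0.0622 to 0.14), of *ChAT* for all but replicate 2 at 25 °C (0.0524 to 0.0768) and of *nSyb* for replicate 3 at 25 °C (0.0518). Under normexp, *piwi*, *nSyb* and *ChAT* changed by 0.91, 0.72 and 0.63, under 2-fold, and were not called. The adjusted p (limma) was then 0.00529, 0.0277 and 0.0088.

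The same warming step in lacZ RNAi, which shares no array with the comparison, was set beside these changes. Of the 20665 probes, which were chosen by their signal in H2Av RNAi, 887 (4.29%) were called higher in lacZ RNAi and 865 (4.19%) lower. Probes that passed the background filter only in other groups were not counted. Across the 20665 probes, the changes in both RNAi groups had a Pearson r of 0.52 and a Spearman rho of 0.51, given as a description with no test, since probes are not independent and all arrays share the platform. Of the 760 probes that rose in H2Av RNAi, 706 (92.9%) had a positive change and 270 (35.5%) were also called higher in lacZ RNAi, and none was called lower. Of the 707 that fell, 588 (83.2%) had a negative change in lacZ RNAi, 317 (44.8%) were called lower and 37 were called higher. For comparison, 68.5% of all tested probes had the same sign in both groups. Seen from lacZ RNAi, 30.4% of its risen and 36.6% of its fallen probes were called the same way in H2Av RNAi. The replicates of lacZ RNAi spread more, and its 1752 calls became 3915 without replicate 2 at 30 °C, 2837 without replicate 2 at 25 °C, 1162 without replicate 3 at 25 °C, and 1094 and 944 without replicate 1 and 3 at 30 °C. When arrays were scaled to their 75th percentile instead, 78.4% of the calls in lacZ RNAi were higher, against 42.5% in H2Av RNAi.

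Many of the named genes were called the same way in both RNAi groups. The change in lacZ RNAi was -2.88 for *CG13694*, -2.53 for *Bfc*, -2.22 for *Nazo*, -2.71 for *Lip4*, -2.29 for *betaTub97EF* and -2.04 for *pst*, each called lower. Of the 12 strongest rises, *mspo* (2.61), *CG17321* (2.15), *CG34355* (1.95) and *Rh50* (1.94) were called higher in lacZ RNAi as well. So were *Pde6* (1.74), *tok* (1.71), *yellow-d* (1.33) and *Hsp23*. The detoxification, blood cell, matrix, JAK/STAT and JNK and desaturase genes named above were mixed. *Cyp12d1-p* (1.94), *Cyp12d1-d* (1.34), *et* (2.45) and *Desat1* (1.31) were called higher in lacZ RNAi, and *drpr* (-1.64), *trol* (-1.05) and *Desat2* (-1.42) lower. Not called there were *Tig* (-0.71), *lz* (-0.29), *Ets21C* (-0.39) and the *GstS1* probe of the list (-0.12). *tin* was higher at 25 °C in lacZ RNAi, with 8.01, 5.91 and 6.74, than on any depleted array at 25 °C, and its change there was 0.52 (adjusted p = 0.397), but the difference of 2.17 ± 0.59 did not pass the test (adjusted p = 0.149).

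A difference between the RNAi groups in the response to warming was called for few probes. The called difference, H2Av minus lacZ RNAi, was negative for 147 probes (0.711% of those tested) and positive for 10 (0.0484%). Its sign gives the direction of the difference, not the size of either change. An unadjusted p under 0.05 was found for 2261 probes. The 147 probes had a median change of -1.18 in H2Av RNAi and of 1.09 in lacZ RNAi. Of them, 87 were called lower in H2Av RNAi, 81 were called higher in lacZ RNAi, and 37 were both. Their median level went from 9.19 at 25 °C to 7.64 at 30 °C in H2Av RNAi and from 8.51 to 9.33 in lacZ RNAi. They were dimmer than other probes, with a median signal of 8.61 against 9.93, and 74 carried no symbol. The other probes of the same genes shared the difference to a small extent only: 35 genes had 65 further tested probes, of which 41 had a negative difference and 2 a called one, with a median of -0.17 against -2.25 for the called probes. The split between the directions depended on 1 control array. Without replicate 2 of lacZ RNAi at 30 °C, there were 405 called differences, 258 negative and 147 positive. With array weights, 769 were negative and 526 positive. The number of called differences was 100 without replicate 3 of H2Av RNAi at 25 °C or at 30 °C.

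*ND5*, a gene of the mitochondrial genome that codes for a complex I subunit, showed the largest difference among the named genes. A probe of it ranged from 9.94 to 11.27 over the 3 arrays of H2Av RNAi at 25 °C and was at 7.41, 7.81 and 7.63 at 30 °C, but at 7.71, 8.43 and 9.43 and then at 10.86, 11.14 and 10.31 in lacZ RNAi. It therefore fell in the depleted and rose in the control cells, with a difference of -5.27 ± 0.70 (limma, adjusted p = 0.0016). Its 2 further probes changed by -1.12 and 0.76 in H2Av RNAi, neither called, and none of the 11 measured genes of the mitochondrial genome was called by its brightest probe. *CG3634* went from 8.05, 7.87 and 8.61 to 6.47, 6.28 and 5.82 in H2Av RNAi and from 6.71, 6.86 and 6.59 to 9.30, 8.98 and 8.94 in lacZ RNAi (difference -4.34 ± 0.32, adjusted p = 3.57e-05), whereas its other probe had a difference of 0.06. *CG2811* (-4.54 ± 0.44, adjusted p = 0.000142), *Tlk*, the gene of the Tousled-like kinase that acts in chromatin assembly (-4.48 ± 0.72, 0.00652), and *Argl*, the argininosuccinate lyase gene (-4.16 ± 0.56, 0.0016), also fell in H2Av RNAi and rose in lacZ RNAi. *CG2811* was at least 3.68-fold lower at 30 °C in H2Av RNAi, where no array was above background. The difference of *Tlk* was not called when only the 12 arrays at 25 and 30 °C were fitted (adjusted p = 0.0516). For *Tlk*, *CG2811* and *Argl*, the arrays of the temperatures did not overlap in either RNAi group. The further probes of these genes had differences of 0.06 (*CG2811*), -1.51 to -0.08 (*Tlk*) and 0.35 (*Argl*).

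Single-probe genes with the same pattern included *HisRS*, which codes for histidyl-tRNA synthetase. Its levels were 11.81, 12.08 and 12.21 in H2Av RNAi at 25 °C and 10.17, 10.19 and 9.61 at 30 °C, against 9.32, 10.50 and 10.51 and then 11.14, 11.67 and 11.26 in lacZ RNAi (difference -3.29 ± 0.40, adjusted p = 0.000888). It was the only gene that fell among 31 of the ATF4 and amino acid response. *Srg3* fell only in H2Av RNAi by the call used here, with 11.31, 10.63 and 10.52 and then 10.78, 11.94 and 10.54 in lacZ RNAi, which overlapped, and the difference of -3.75 ± 0.47 passed the test (adjusted p = 0.00099), while its other probe had a difference of 0.20. The acyl-CoA oxidase gene *Acox3* went from 4.74, 5.08 and 5.05 to 3.88, 3.64 and 2.66 in H2Av RNAi and from 4.72, 4.67 and 4.66 to 5.92, 5.22 and 5.46 in lacZ RNAi (-2.41 ± 0.37, adjusted p = 0.00427). Its change in H2Av RNAi was -1.56 (adjusted p = 0.00189). With normexp it was -0.34, under 2-fold and so not called (adjusted p = 0.0111).

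In the opposite direction, *GstS1* had the most further probes. A probe of it was at 6.91, 6.89 and 6.76 and then at 8.65, 8.67 and 8.55 in H2Av RNAi, against 10.02, 9.59 and 9.34 and then 9.89, 9.86 and 9.87 in lacZ RNAi. The signal was thus lower on every depleted array than on every control array, and it was called higher with warming only in H2Av RNAi (difference 1.54 ± 0.31, adjusted p = 0.0328). Its 3 further probes had positive differences with a median of 1.20, none called. *Nagk*, the N-acetylglucosamine kinase gene, was at 10.62, 10.47 and 10.77 and then at 10.96, 10.92 and 11.14 in H2Av RNAi, but fell in lacZ RNAi from 11.21, 10.51 and 10.82 to 9.44, 9.84 and 9.54 (1.63 ± 0.25, adjusted p = 0.00427). The kynurenine formamidase gene *KFase* (2.60 ± 0.54, 0.0371) and *CG10581* (2.08 ± 0.38, 0.0154) fell in lacZ RNAi and were not called in H2Av RNAi, and *superdeath* rose in H2Av RNAi alone (1.83 ± 0.40, 0.0489). With the replicate block, the adjusted p of the difference was 0.0511 for *GstS1*, 0.0644 for *KFase* and 0.0857 for *superdeath*. Leaving out single arrays ended the call of *GstS1* for 9 of 12 arrays (0.0571 to 0.101), of *KFase* for 9 of 12 (0.0609 to 0.112) and of *superdeath* for 11 of 12 (0.0533 to 0.144), and that of *CG10581* for replicate 1 at 25 °C and replicate 3 at 30 °C of H2Av RNAi (0.0531 and 0.0539).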

How the data were processed

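Per the labels, Cy3-labelled cRNA from total RNA was hybridised to single-colour arrays in 6 groups of 3, and every array was assigned by its title. Intensity values were in the deposited scanner files, which the authors had made with Feature Extraction 10.7.3.1 by subtracting background within the array, without scaling between arrays, together with flags of 0 or 1 for spots above background, saturated or outlying, which the authors deposited as other columns. The authors also deposited a value table on a log2 scale, which per the study's methods was quantile normalized. The input of this table is not given in the sources used here, its values ran from -0.08 to 19.1, its column medians were about 7.19, and it served as an alternative only.

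Processed signals were converted to log2 and quantile normalized over all 18 arrays, outlying spots were dropped, and the median was taken over the spots of a probe. The 21774 probes well above background on at least 2 of 3 arrays of some group were fitted with 1 mean per group in limma 3.58.1 (R 4.3.3). The contrasts were 30 minus 25 °C in H2Av RNAi, the same in lacZ RNAi, the difference of both, and H2Av against lacZ RNAi at each temperature. P-values were adjusted by Benjamini-Hochberg over all fitted probes and are two-sided. The procedure was tested on simulated data with independent noise and the same spread of a probe in all groups. The spread of the real groups differed, so this was a check of the calculation only. Well above background were 17551 to 20711 probes per array on the arrays of H2Av RNAi at 25 and 30 °C. No non-control spot was saturated on any of the 18 arrays, and the number of arrays limits the precision. The labels give replicate numbers only, and the study's text describes the 3 replicates of a group as biological.

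A fold change was given as "at least" where no array of the lower group was above background, from the mean of the higher group over the mean of, per array, the higher of the probe's own signal and the lowest signal among probes above background. Symbols were found through the CG number or accession for 19482 of 32162 probes, older symbols were updated, and no coordinates were used. Members and gene lists were chosen with earlier results of these data known. Named were the 12 genes with the largest rise and fall among called probes that were above background on all arrays of the higher group and did not overlap, the 5 with the largest difference each way, up to 3 called genes each way per list, His2Av, Act5C and 10 genes of the study text. *Hsp67Bc*, *Hsp70Bc*, *Hsp68*, *CG4461*, *CG14207*, *l(2)efl*, *CecA2*, *Hsf*, *Hsp83* and *Hsc70-4* were added after their values were seen. So were the marker genes, and the proteasome and replication genes with changes under 2-fold. A gene that met this rule is not reported here.

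Deviations from the group means of same-numbered arrays at 25 and 30 °C correlated with 0.48, 0.21 and 0.40 in H2Av RNAi. In lacZ RNAi, they correlated with -0.28, -0.49 and 0.30. The numbers may thus pair the arrays of H2Av RNAi, although a number was also a position on the slide. The main tests did not use this pairing, which entered only as an alternative. Alternatives were scaling to the 75th percentile, normexp background correction of the median signal with an offset of 50, the authors' table, other filters and fits, the replicate number as a block, array weights, no fold threshold, and leaving out each array.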

Additional observations from a re-analysis of the deposited data

Results flagged for a closer look

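For 13 probes of named genes, the change between 30 and 25 °C differed between H2Av RNAi and lacZ RNAi by limma's test of the difference itself. In log2 units, H2Av minus lacZ RNAi, the difference was -5.27 for *ND5*, -4.54 for *CG2811*, -4.48 for *Tlk*, -4.34 for *CG3634*, -4.16 for *Argl*, -3.75 for *Srg3*, -3.29 for *HisRS* and -2.41 for *Acox3*. It was 2.60 for *KFase*, 2.08 for *CG10581*, 1.83 for *superdeath*, 1.63 for *Nagk* and 1.54 for *GstS1*. Among the first 6 genes, further probes had differences between -2.59 and -1.10 for *ND5* and between -1.51 and 0.35 for the others, which have 0.06 for *CG2811* and *CG3634*, 0.35 for *Argl* and 0.20 for *Srg3*. The replicates of lacZ RNAi, on which these differences also rest, spread more than those of H2Av RNAi, and the part of this spread in the differences was not tested.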

How the results depend on the processing

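The count of 1467 probes called between 30 and 25 °C in H2Av RNAi was within 1.5 times of this under scaling to the 75th percentile, other filters, fits of fewer arrays or probes and the replicate block. It was 631 (295 higher, 336 lower) with normexp, 776 (379, 397) with the authors' table, 2654 (1359, 1295) with array weights, 2571 (1240, 1331) without the fold threshold, and 886 to 1218 when single arrays were left out. The 1752 probes of lacZ RNAi became 833 with normexp, 993 with the authors' table, 4168 with array weights, 3201 without the fold threshold, and 944 to 3915 with single arrays left out. The 157 differences became 251 with the 75th percentile and 92 with the 12 arrays at 25 and 30 °C only. They became 1295 with array weights (40.6% positive) and 100 to 405 with single arrays left out. The cause was not tested. The paired fit with the replicate block called 1640 probes (823 higher, 817 lower) and 128 differences, and beyond the genes named with it above it changed no call of a named gene. With it, 2 genes instead of 1 were called lower among proteasome subunits and among DNA damage and repair genes, and 1 instead of none was called among mitochondrial ribosomal proteins (lower) and in the mitochondrial genome (higher). Of 63 called changes of named genes, 27 held under every alternative, 36 were lost under at least 1 and none reversed. Of these, 24 were lost with normexp and 21 with the authors' table. Calls also counted as lost where the change fell under 2-fold while the adjusted p stayed under 0.05. An example was *Rh50* with normexp (0.80, limma, adjusted p = 0.000544). Of 10 called differences tested this way, 5 held throughout (*ND5*, *CG2811*, *CG3634*, *Argl* and *Nagk*). *InR*, which was not called, turned from 0.04 to -0.00048 with normexp and to between -0.084 and 0.22 when single arrays were left out (-0.084 and -0.0069 without replicate 2 and 3 at 25 °C, -0.027 and -0.078 without replicate 1 and 2 at 30 °C). With the 75th percentile as the scale, the median of all probes was -0.04 in H2Av RNAi, 0.16 in lacZ RNAi and -0.19 in their difference. Dim probes, whose lower group was near background, had the least certain fold changes.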
